A study of Mus musculus with 6 samples.

Results

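The 10 genes Camk2a, Camk2b, Camk2d, Camk2g, Camk2n1, Camk2n2, Camk4, Camk1, Camkk1 and Camkk2 code for the main calcium/calmodulin-dependent (CaM) kinases of neurons, the kinases that activate them and the inhibitors of CaMKII. They were taken by symbol from the GENCODE mouse annotation and make up 10 of the 36008 genes in the deposited table. The 4 genes Camk2a, Camk2b, Camk2d and Camk2g were also followed by linker form, the combination of variable exons between kinase and hub. Their RNA was measured by RNA-seq of polyadenylated RNA from hippocampus of female B6J mice at 2 weeks of age. The comparison was between 3 WT mice and 3 Prmt9 KO mice, same-sex littermates, in which an exon of the arginine methyltransferase gene Prmt9 had been deleted in the germline with CMV-Cre. The deletion is therefore present in all tissues, so that differences between hippocampi need not arise in neurons. The study asked how loss of PRMT9 affects RNA in the developing hippocampus, and the CaM kinases are among the best known signalling proteins of its excitatory synapses.

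CaMKII is a ring of many subunits made from 4 related genes. Each subunit has a kinase domain, a regulatory segment that calcium-bound calmodulin displaces, a variable linker and a hub that joins the ring, and the activated enzyme can phosphorylate itself and stay active after calcium has fallen. The alpha subunit, from Camk2a, is a leading protein of the postsynaptic density of excitatory forebrain neurons, the beta subunit, from Camk2b, also binds actin, and the delta and gamma subunits are found in many tissues. Camk2n1 and Camk2n2 code for small proteins that bind and inhibit the active enzyme. CaMKI and CaMKIV, from Camk1 and Camk4, work as single subunits that need phosphorylation by a CaM kinase kinase, from Camkk1 or Camkk2, and CaMKIV acts mainly in the nucleus, where it phosphorylates CREB.

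The linker was read between the 43-base exon at the end of the regulatory segment and the 76-base exon at the start of the hub, which have the same lengths in all 4 CaMKII genes. A 33-base exon lies within it in Camk2a, Camk2d and Camk2g and codes for a nuclear localization signal. It is shown for Camk2d (chr3:126802937-126802969, plus strand) and Camk2g (chr14:20747819-20747851, minus strand) of GRCm38 because its use was measured in both genes, and capitals mark the 26 of 33 bases that both share.
Camk2d 33-base exon: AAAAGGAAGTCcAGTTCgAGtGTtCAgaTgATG
Camk2g 33-base exon: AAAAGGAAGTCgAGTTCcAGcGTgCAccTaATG
The Camk2a exon of the same length shared 28 of 33 bases with either of them. A second conserved linker exon has 45 bases in Camk2b (chr11:5981070-5981114, minus strand) and Camk2g (chr14:20744604-20744648, minus strand). It was present in nearly all RNA of these genes that joins both flanking exons. Capitals mark the 32 of 45 bases shared.
Camk2b 45-base exon: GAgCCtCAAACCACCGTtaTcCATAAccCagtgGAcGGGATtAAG
Camk2g 45-base exon: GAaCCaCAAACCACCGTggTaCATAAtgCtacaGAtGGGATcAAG
Camk2d was the CaMKII gene with the largest difference between genotypes. Most of its RNA that joins both flanking exons has a 60-base exon (chr3:126805857-126805916, plus strand), which is skipped in its shorter linker forms.
Camk2d 60-base exon: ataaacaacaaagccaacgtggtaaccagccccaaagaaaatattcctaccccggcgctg

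The targeted gene was checked first. Prmt9 had 11.8, 15.2 and 14.96 TPM (a level scaled to transcript length and library size) in WT mice and 3.93, 4.61 and 4.67 TPM in Prmt9 KO mice, so every library matched its label. The libraries held from 194098391 to 286771677 estimated counts. WT replicate 1 and Prmt9 KO replicate 1 stood apart from the other 4 mice. A principal component that held 81.4% of the variance in gene counts placed them at 49.8 and 35.5, with the rest at -23.7 to -18.3. Oligodendrocyte markers summed to 1994 and 1055 TPM in these 2 mice and to between 7880 and 11450 TPM in the others, and WT replicate 1 had the highest sum of choroid plexus markers, 7258 TPM against 609 to 3337. Most of the choroid plexus sum was Ttr, at 7157 TPM in WT replicate 1, while Kl, Otx2 and Clic6 were highest in Prmt9 KO replicate 3. WT replicate 1 also had the lowest total and no count for 37.4% of transcripts, against 22.8 to 24.8% in the other 5 mice, and the part of this in its transcript and linker shares was not tested. All markers of excitatory neurons were found, with sums of 937 to 1210 TPM. In edgeR's quasi-likelihood test, 0 of 20335 genes (0%) passed both the 1.5-fold limit and the limit of 0.01 on the adjusted p, and 251 (1.23%) had an unadjusted p below 0.05. Prmt9 itself, with a log2 fold change of -1.71 ± 0.10 (SE), had an adjusted p of 0.0327 in this test and was not called. DESeq2 called 4 genes, Prmt9 included, and none of the 10 CaM kinase genes was among them.

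The level of Camk2a was the highest of the 10 genes and stood at rank 57 of all genes. It was 776, 1704 and 1672 TPM in WT mice and 816, 1698 and 1640 TPM in Prmt9 KO mice. The mice numbered 1 were low in both genotypes, and the groups overlapped. The mean level of replicates 2 and 3 was 2.17-fold that of replicate 1 in WT and 2.05-fold in Prmt9 KO, whereas the genotypes differed by a log2 fold change of -0.05 ± 0.30 (standard error, SE) (adjusted p = 0.9999, edgeR). Without both mice numbered 1 the log2 fold change was -0.01 ± 0.04 (SE). In RNA from whole tissue, fewer cells of a type and less RNA per cell cannot be told apart.

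Camk2b was next in level, at rank 170, with 489, 767 and 747 TPM in WT mice and 540, 730 and 724 TPM in Prmt9 KO mice. Its log2 fold change was -0.07 ± 0.12 (SE). Within each genotype replicate 1 was again the lowest mouse, but less so, by 1.55-fold in WT and 1.35-fold in Prmt9 KO. Camk2g stood at rank 1191 with 87.6, 154 and 153 TPM in WT mice and 130, 146 and 153 TPM in Prmt9 KO mice. The lowest WT value was again that of replicate 1, and the other 5 mice lay close together. The log2 fold change of Camk2g was 0.06 ± 0.10 (SE), and it was -0.02 without both mice numbered 1.

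Camk2d had the lowest level of the 10 genes, at rank 5961, and was the member whose genotypes did not overlap in TPM. It had 16.4, 28.3 and 26.0 TPM in WT mice and 36.3, 35.2 and 31.1 TPM in Prmt9 KO mice. Every Prmt9 KO mouse lay above every WT mouse, which was so for 1 of the 10 genes, and for 1074 of 20331 genes (5.28%) in the whole table. On counts, the log2 fold change of Camk2d was 0.39 ± 0.14 (SE), with an unadjusted p of 0.0348 and an adjusted p of 0.9999 in edgeR, so that it did not pass the test. The TPM of mice of the same number differed on the log2 scale by 1.14, 0.31 and 0.26, the widest difference being between the mice numbered 1. The difference on counts was 0.37 with the replicate number as a block (unadjusted p = 0.0159 and adjusted p = 0.791, edgeR) and 0.24 without both mice numbered 1 (unadjusted p = 0.0231 and adjusted p = 0.237, edgeR). Such unadjusted p-values below 0.05 were found for 5.73% and 16.4% of all genes in these fits. Without Prmt9 KO replicate 1 alone the log2 fold change was 0.25. The annotation has 8 other genes that overlap Camk2d, 1 of them, Gm15551, on the opposite strand.

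**Figure D1:**
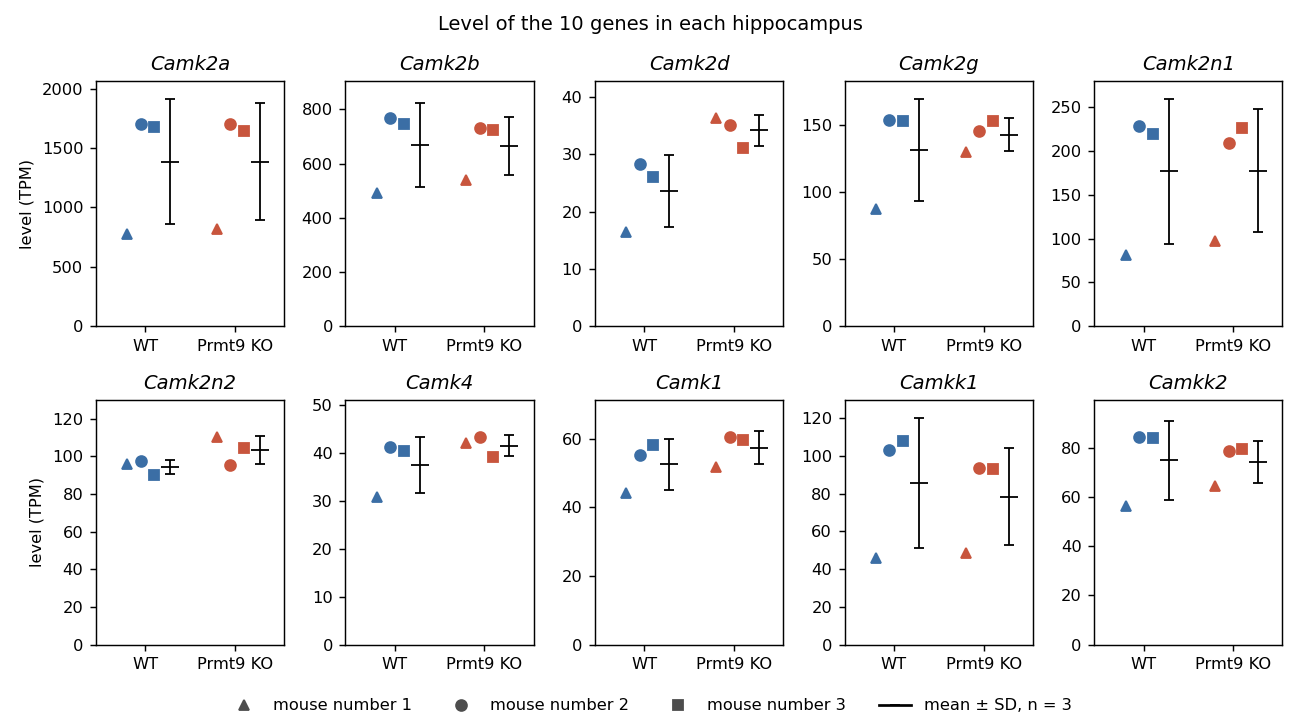
Level of each of the 10 genes (vertical axes in TPM, each starting at 0) in the 3 WT and 3 Prmt9 KO hippocampi, with the shape of a point giving the mouse number and the bar the mean ± SD over 3 mice. The mice numbered 1 are low for Camk2a, Camk2n1 and Camkk1 in both genotypes, and the points of the genotypes do not overlap for Camk2d, at 16.4 to 28.3 TPM in WT and 31.1 to 36.3 TPM in Prmt9 KO.

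The inhibitor genes behaved unlike each other across mice. Camk2n1 had 81.5, 229 and 220 TPM in WT mice and 96.8, 210 and 227 TPM in Prmt9 KO mice. Its replicates 2 and 3 exceeded replicate 1 by 2.75-fold in WT and 2.25-fold in Prmt9 KO, the widest such gap of the 10 genes in either genotype. Camk2n2 had 95.7, 97.5 and 90.1 TPM in WT mice and 110, 95.6 and 105 TPM in Prmt9 KO mice, with no gap at the mice numbered 1, where the same fold was 0.980 and 0.908. Neither gene differed between genotypes beyond its spread, with log2 fold changes of -0.03 (SE 0.39) for Camk2n1 and 0.05 (SE 0.15) for Camk2n2. The Camk2n2 locus overlaps Gm49333 on the opposite strand, and the sources used here do not state whether strand was used in counting.

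CaMKIV and CaMKI, the kinases that act as single subunits, were moderate in level. Camk4 had 30.7, 41.2 and 40.4 TPM in WT mice and 42.0, 43.3 and 39.2 TPM in Prmt9 KO mice. WT replicate 1 lay below the other 5 mice, and the log2 fold change was 0.09 ± 0.10 (SE). Camk1 had 44.3, 55.2 and 58.3 TPM in WT mice and 51.9, 60.6 and 59.7 TPM in Prmt9 KO mice. The Camk1 values were highest in Prmt9 KO replicates 2 and 3, yet overlapped with WT through Prmt9 KO replicate 1, and the log2 fold change was 0.06 ± 0.08 (SE). Camk1 overlaps the DNA repair gene Ogg1, which lies on the opposite strand.

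Of the upstream kinases, Camkk1 had 46.0, 103 and 108 TPM in WT mice and 48.5, 93.5 and 93.1 TPM in Prmt9 KO mice. The mice numbered 1 were low in both genotypes, by 2.30-fold in WT and 1.92-fold in Prmt9 KO. The log2 fold change was -0.17 ± 0.31 (SE) over all mice (unadjusted p = 0.597, edgeR). The same size of difference had a much smaller error where the mouse number was accounted for. It was -0.17 ± 0.05 (SE) with the replicate block (unadjusted p = 0.0209 and adjusted p = 0.791, edgeR), and -0.17 ± 0.04 (SE) without both mice numbered 1 (unadjusted p = 0.00314 and adjusted p = 0.144, edgeR). An unadjusted p below 0.05 was found for 5.73% of all genes with the block and for 16.4% without both mice numbered 1. Camkk1 passed the threshold in none of these fits. Leaving out single mice moved its log2 fold change between -0.38, without WT replicate 1, and 0.06, without Prmt9 KO replicate 1. Camkk2 had 56.4, 84.5 and 84.0 TPM in WT mice and 64.6, 78.7 and 79.8 TPM in Prmt9 KO mice. Its groups overlapped, with a log2 fold change of -0.06 ± 0.12. (SE)

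**Figure D2:**
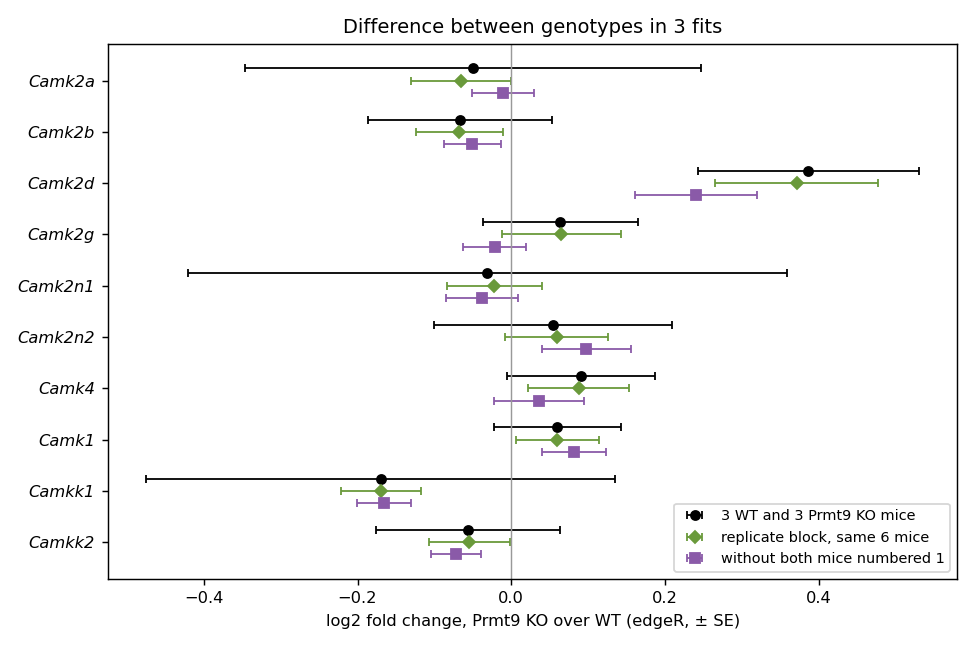
Log2 fold change of each gene between Prmt9 KO and WT on the horizontal axis, from edgeR with its standard error as the bar, in the fit to all mice, the fit with the replicate number as a block and the fit without both mice numbered 1. Camk2d lies at 0.39, 0.37 and 0.24 and Camkk1 at -0.17 in each fit, and no gene passed the adjusted threshold in any of them.

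Across the 10 genes, 0 were called by edgeR or by DESeq2, 1 had an unadjusted p below 0.05 in edgeR, against 1.23% of all genes, and the median log2 fold change was 0.01 against -0.01 over all genes tested. The order of mean levels was Camk2a, Camk2b, Camk2n1, Camk2g, Camk2n2, Camkk1, Camkk2, Camk1, Camk4 and Camk2d. Camk2a exceeded Camk2b and Camk2b exceeded Camk2n1 in all 6 mice, and at the lower end Camk1 exceeded Camk4 and Camk4 exceeded Camk2d in all 6. In the middle of the order the WT ranges of each gene and the next overlapped, from Camk2n1 down to Camk1, although Camkk2 exceeded Camk1 within all 6 mice. The Prmt9 KO ranges overlapped for Camk2n1 and Camk2g and for Camkk1 and Camkk2, and not for Camk2g and Camk2n2, Camk2n2 and Camkk1, or Camkk2 and Camk1. The gap at the mice numbered 1 was thus large for Camk2a, Camk2n1 and Camkk1, moderate for Camk2b and Camkk2, and absent for Camk2n2. Excitatory neuron markers summed to 937 and 1000 TPM in the mice numbered 1 and to between 1093 and 1210 TPM in the others, and the part of cell type makeup in the gap was not tested.

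The genes with the profile most like Camk2a over the 6 mice were Fbxo33, Sept8 and Pip5k1b, of 9981 genes compared. Their mean-centred log2(TPM + 1) values differed from those of Camk2a by a root mean square of 0.036, 0.040 and 0.042, where the spread of Camk2a itself was 0.508. Fbxo33, for example, had 9.90, 23.5 and 23.0 TPM in WT mice and 11.2, 23.8 and 23.7 TPM in Prmt9 KO mice. Among the CaM kinase genes, Camkk1 came 58th in this order and Camk2n1 came 359th, while Camk2n2 came 7037th. In Fbxo33, Sept8 and Pip5k1b the mice numbered 1 were the lowest of each genotype, which follows from choosing these genes by likeness to Camk2a.

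The ratio of Camk2a to Camk2b, which bears on the subunits of the CaMKII ring, overlapped between the genotypes. It was 1.59, 2.22 and 2.24 in WT mice and 1.51, 2.33 and 2.27 in Prmt9 KO mice. The WT mean was 2.02 ± 0.37 and the Prmt9 KO mean 2.03 ± 0.45 (SD, n = 3 each), a log2 difference of 0.0044 (exact two-sided permutation test, p = 1, where 3 mice against 3 cannot give a p below 0.1). Between mice of the same number the log2 ratio differed by -0.07, 0.07 and 0.02. In both genotypes the mouse numbered 1 had the lowest ratio, with values near 1.5 to 1.6 against 2.2 to 2.3.

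Of the summed CaMKII level, which was 1370, 2653 and 2598 TPM in WT mice and 1522, 2609 and 2549 TPM in Prmt9 KO mice, Camk2a made up 53.6 to 65.1% and Camk2b 28.0 to 35.7%. Camk2g contributed 6.40, 5.81 and 5.88% in WT mice and 8.54, 5.59 and 6.02% in Prmt9 KO mice. Camk2d contributed 1.20, 1.07 and 1.003% in WT mice and 2.39, 1.35 and 1.22% in Prmt9 KO mice, with the Prmt9 KO mice above the WT mice here too. This share restates the Camk2d level on another scale.

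The inhibitors Camk2n1 and Camk2n2 together had 0.129, 0.123 and 0.119 of the level of the CaMKII genes in WT mice and 0.136, 0.117 and 0.130 in Prmt9 KO mice. The log2 difference was 0.04 (exact two-sided permutation test, p = 0.6), and the sum kept close to the kinases also in the mice numbered 1. Its makeup did not. The ratio of Camk2n1 to Camk2n2 was 0.852, 2.35 and 2.44 in WT mice and 0.878, 2.19 and 2.17 in Prmt9 KO mice, so that Camk2n2 was the more abundant inhibitor RNA in the mice numbered 1 and Camk2n1 in the others.

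**Figure D3:**
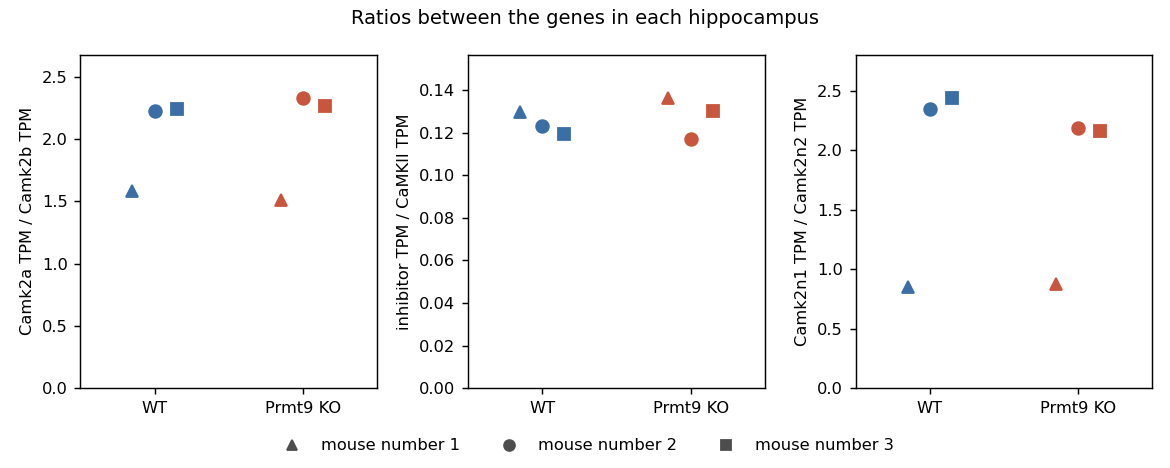
Ratio of Camk2a to Camk2b, of the summed inhibitors to the summed CaMKII genes, and of Camk2n1 to Camk2n2 (vertical axes, ratios of TPM starting at 0) in each WT and Prmt9 KO mouse, with the shape giving the mouse number. The mice numbered 1 are low in the left and right panels, at 1.59 and 1.51 and at 0.852 and 0.878, and the genotypes overlap in all 3 panels.

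The 4 CaMKII genes had 21 annotated linker forms that join both flanking exons, 2 in Camk2a, 8 in Camk2b, 4 in Camk2d and 7 in Camk2g. A form is named here by the lengths of its exons in bases, in order, and its share is its TPM divided by the TPM of all transcripts of the gene with both flanking exons. These transcripts held 98.1 to 98.9% of the Camk2a level, 88.8 to 91.8% of Camk2b, 69.4 to 76.3% of Camk2d and 79.3 to 91.3% of Camk2g. Of the forms, 13 had a mean share of at least 5% in either genotype. In 0 of these 13 did the groups stand apart, and the lowest p was 0.3 (exact two-sided permutation test, adjusted p = 0.975). The share over the whole table was taken on another measure, single transcripts with at least 5% of their gene's TPM, and the groups stood apart in 9.79% of these. With each linker share taken of all RNA of its gene, 1 form stood apart.

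The short form of Camk2a, 41+49, made up 90.3 to 99.0% of its linker RNA in the 6 mice. The form with the 33-base exon had 0.972, 9.66 and 8.87% in WT mice and 1.85, 8.92 and 7.99% in Prmt9 KO mice. It was low in both mice numbered 1 and near 8 to 10% in the other 4, and the genotypes overlapped. Each Camk2a form came from 1 annotated transcript, and the transcripts also differ at their 3′ ends, with last exons of 1631 bases in Camk2a-201, which has the 33-base exon, and 3376 bases in Camk2a-203, which lacks it. The share therefore reflects whichever of these sequences the reads fell on.

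Camk2b, whose linker carries the actin-binding part of the beta subunit, was dominated by the form 75+38+72+45+49, with 89.7, 87.1 and 87.2% in WT mice and 89.0, 87.0 and 87.0% in Prmt9 KO mice. The form 41+72+45+49, without the 75-base exon, had 3.82, 5.39 and 5.47% in WT mice and 5.14, 5.89 and 5.75% in Prmt9 KO mice. The other 6 forms stayed below 5%. The 45-base exon shown above was included in 94.9 to 95.6% of Camk2b linker RNA.

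In Camk2d, the form 38+60+42+49 with the 60-base exon shown above had 60.7, 74.1 and 69.0% in WT mice and 66.7, 70.5 and 70.3% in Prmt9 KO mice. The shortest form, 38+49, had 19.0, 21.3 and 25.1% in WT mice and 19.7, 22.5 and 24.7% in Prmt9 KO mice. This form pools 8 annotated transcripts, several of them not annotated as coding, so its share is not one of coding RNA alone. Among them, Camk2d-223, which retains an intron, had 0.476, 2.66 and 2.92 TPM in WT mice and 3.59, 3.90 and 3.56 TPM in Prmt9 KO mice. As a share of all Camk2d RNA it overlapped between genotypes, with 2.90, 9.41 and 11.2% in WT mice and 9.89, 11.1 and 11.5% in Prmt9 KO mice. The form 38+42+49 reached 15.6% in WT replicate 1 and 11.1% in Prmt9 KO replicate 1 and was at 0.688 to 3.03% in the other mice. The form with the 33-base exon had 4.62, 1.58 and 4.85% in WT mice and 2.55, 4.69 and 4.41% in Prmt9 KO mice. In TPM, which restates the level of the gene by form, the values were 7.61, 14.7 and 13.5 in WT and 17.5, 18.6 and 15.2 in Prmt9 KO for 38+60+42+49, and 2.38, 4.23 and 4.91 in WT and 5.16, 5.91 and 5.33 in Prmt9 KO for 38+49.

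Camk2g had the most even mix, with 6 forms at 5% or more. The leading form, 44+69+45+49, had 37.4, 28.0 and 29.3% in WT mice and 37.4, 32.2 and 31.4% in Prmt9 KO mice. Forms with the 33-base exon added up to 36.3, 41.5 and 37.7% in WT mice and 35.5, 35.2 and 36.4% in Prmt9 KO mice, several times the share seen in Camk2a or Camk2d. Part of this was 63+44+33+45+49, from the partial transcript Camk2g-212, with 14.0, 18.7 and 17.0% in WT mice and 12.8, 15.8 and 14.4% in Prmt9 KO mice. The difference of this form between genotypes was -2.27 points on TPM and -0.45 points on estimated counts. The 63-base exon was included in 18.4, 29.5 and 27.7% in WT mice and 21.7, 27.2 and 26.2% in Prmt9 KO mice, and was lowest in the mice numbered 1. Its forms came only from Camk2g-204, Camk2g-209 and Camk2g-212, annotated with 11 exons each, against 19 to 22 for the transcripts of the other forms. The difference of its form 63+44+45+49+114 was 2.18 points on TPM and 0.44 points on estimated counts. Mean inclusion of the 33-base exon in Camk2g was 38.5% ± 2.69 for WT and 35.7% ± 0.61 for Prmt9 KO (SD, n = 3 each), with overlapping groups.

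**Figure D4:**
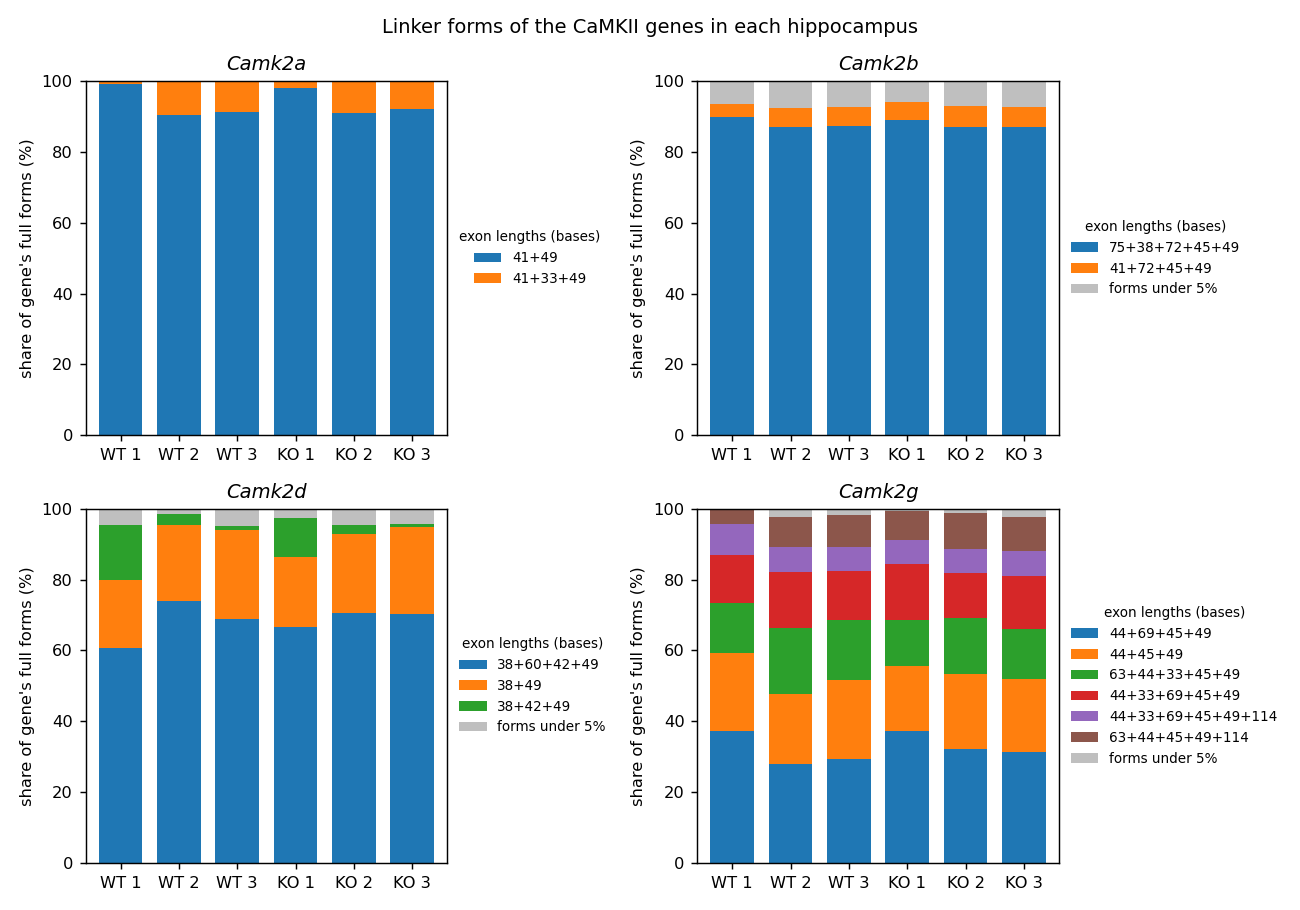
Share of each linker form (vertical axis, percent of the TPM of all transcripts of the gene with both flanking exons) in each of the 6 mice, with forms named by the lengths of their exons in bases and forms with a mean share under 5% in grey. Camk2a and Camk2b each have a dominant form, 41+49 at 90.3 to 99.0% and 75+38+72+45+49 at 87.0 to 89.7%, and Camk2g divides its RNA over 6 forms.

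**Figure D5:**
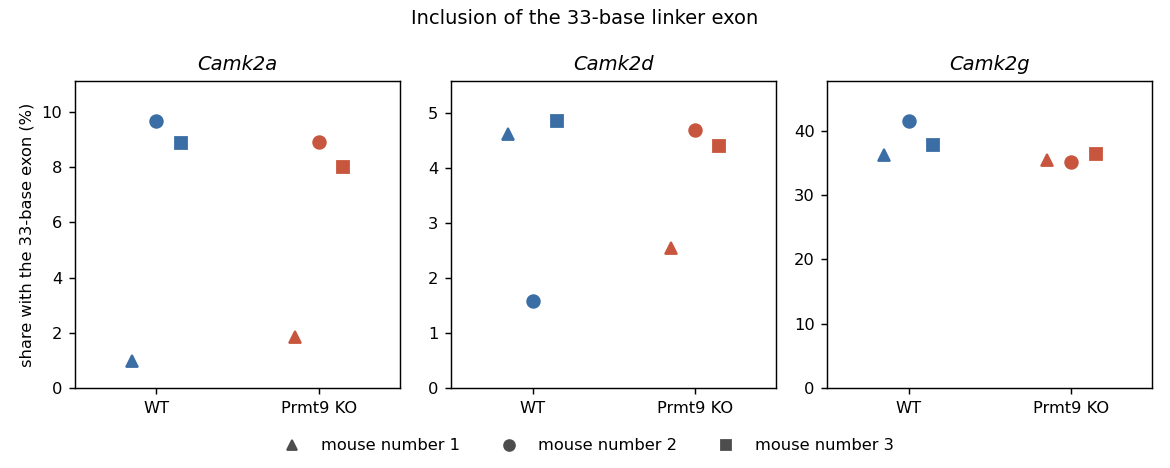
Share of linker RNA that includes the 33-base exon with the nuclear localization signal (vertical axes in percent, starting at 0) in each mouse for Camk2a, Camk2d and Camk2g. The exon is at 35.2 to 41.5% in Camk2g and below 10% in the other 2 genes, and in Camk2a the mice numbered 1 lie lowest, at 0.972 and 1.85%.

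The 10 genes have 93 annotated transcripts, and Camk2n1 and Camk2n2, with 1 transcript each, were left out of the count of shares. In the other genes, 29 transcripts had a mean share of at least 5% of their gene's TPM in either genotype. In 2 of these 29 the groups did not overlap, against 9.79% of transcripts with such a share in the whole table. Camk1-206, a transcript with a retained intron, had 4.20, 4.81 and 4.55% of Camk1 in WT mice and 5.96, 4.86 and 5.70% in Prmt9 KO mice. Camk2g-212, a partial coding transcript of 11 exons, had 12.8, 15.3 and 13.9% of Camk2g in WT mice and 11.1, 12.5 and 11.6% in Prmt9 KO mice. Neither passed the test of transcript usage in edgeR, with unadjusted p of 0.641 and 0.650.

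The other leading transcripts overlapped between genotypes. Camkk1-203, which retains an intron, had 28.3, 36.8 and 37.0% of Camkk1 in WT mice and 24.8, 31.8 and 35.6% in Prmt9 KO mice. Camk4-204, annotated as a target of nonsense-mediated decay, had 35.1, 27.3 and 27.7% of Camk4 in WT mice and 34.1, 26.0 and 26.0% in Prmt9 KO mice. Both mice numbered 1 thus had the lowest share of the Camkk1 transcript and the highest share of the Camk4 transcript. Camkk2-201, the main coding transcript of Camkk2, had between 70.5 and 73.5% in all mice.

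In the test of transcript usage over genes, edgeR called 22 of 13561 genes (0.162%) and none of the 8 CaM kinase genes with 2 or more tested transcripts, whose adjusted p lay between 0.540 and 1. With the replicate number as a block the count over all genes was 12, again without any of the 8 genes. The lowest unadjusted p was that of Camk2d, 0.00378 (edgeR), below the 0.05 that 1.67% of all genes reached. It rested on the coding transcript Camk2d-226, with 7.88, 0.678 and 0.182% of Camk2d in WT mice and 0.372, 0.102 and 0.302% in Prmt9 KO mice, where WT replicate 1 alone was high. The unadjusted p of Camk2d was 0.772 without WT replicate 1 and 0.145 with the replicate block (edgeR). For Camk1 it was 0.626 over all mice and 0.00407 without WT replicate 1 (adjusted p = 0.160, edgeR). The fit without WT replicate 1 called 139 genes in the whole table, against 22 over all mice. The intron-retaining transcript Camk1-202 had 7.25, 3.74 and 2.09% in WT mice and 12.9, 4.28 and 7.55% in Prmt9 KO mice. Its groups overlapped (unadjusted p of usage = 0.125 over all mice, edgeR).

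The other genes of the pathway were followed in 6 lists of 85 genes, of which 84 were tested and Calml3 was not. No gene of the lists was called by edgeR or DESeq2, and 1 of the 84 had an unadjusted p below 0.05 in edgeR, against 1.23% of all genes. The medians of the lists lay between -0.07 and -0.02 on the log2 scale, against -0.01 over all genes. Among 15 other calmodulin-dependent kinases, log2 fold changes lay between -0.14 and 0.11, and the most abundant, the pseudokinase gene Camkv, had 367, 473 and 474 TPM in WT mice and 420, 449 and 442 TPM in Prmt9 KO mice. Phkg2, a catalytic subunit gene of phosphorylase kinase, had a log2 fold change of -0.13 ± 0.09 (SE), and Dapk3, a death-associated kinase gene, had -0.13 ± 0.11 (SE).

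Calm2, the calmodulin gene with the highest level, had 2598, 2325 and 2320 TPM in WT mice and 3031, 2416 and 2255 TPM in Prmt9 KO mice, and 0 of the 11 calmodulin and buffer genes tested were called. Nrgn, which codes for neurogranin, a postsynaptic protein that holds calmodulin at low calcium, had 1456, 1906 and 1855 TPM in WT mice and 1500, 1723 and 1673 TPM in Prmt9 KO mice. Its log2 fold change was -0.21 ± 0.10 (SE) (unadjusted p = 0.0702 and adjusted p = 0.9999, and unadjusted p = 0.0192 and adjusted p = 0.791 with the replicate block, edgeR). The calmodulin-like gene Calml4 had 29.9, 5.53 and 10.2 TPM in WT mice and 8.03, 12.4 and 14.3 TPM in Prmt9 KO mice. It was highest in WT replicate 1, as were the choroid plexus markers Ttr and Folr1. The choroid plexus markers Kl, Otx2 and Clic6 were highest in Prmt9 KO replicate 3.

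Of 19 partners and substrates of CaMKII at the synapse, 0 were called and 2 had an unadjusted p below 0.05 with the replicate block, both lower in Prmt9 KO mice, against 5.73% of all genes. Dlg4, the gene for the scaffold PSD-95, had 370, 539 and 531 TPM in WT mice and 386, 487 and 499 TPM in Prmt9 KO mice. Syn1, the gene for the presynaptic CaMKII substrate synapsin I, had 250, 309 and 296 TPM in WT mice and 262, 275 and 271 TPM in Prmt9 KO mice, with a log2 fold change of -0.16 ± 0.10. (SE) The calcium channel subunit gene Cacnb1 had a log2 fold change of -0.10 ± 0.09 (SE).

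Of 13 phosphatase genes that oppose these kinases, or their regulators, the most abundant was Ppp3ca, a catalytic subunit of calcineurin. It had 408, 758 and 750 TPM in WT mice and 455, 701 and 677 TPM in Prmt9 KO mice, the same low values in the mice numbered 1 as Camk2a, with a log2 fold change of -0.14 ± 0.17. (SE) Ppp1cb, a catalytic subunit gene of protein phosphatase 1, had a log2 fold change of -0.11 ± 0.09 (SE). In this list edgeR called 0 genes, and with the replicate block 1 gene reached an unadjusted p below 0.05, against 5.73% of all genes.

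Downstream of CaMKIV, 0 of 15 genes of the CREB pathway were called, and 4 had an unadjusted p below 0.05 with the replicate block, all with lower values in Prmt9 KO mice, where 5.73% of all genes had such a p in either direction. The gene of the lists with an unadjusted p below 0.05 over all mice was Junb, an activity-induced transcription factor gene. It had 34.0, 62.3 and 55.5 TPM in WT mice and 27.8, 41.1 and 44.9 TPM in Prmt9 KO mice, and each Prmt9 KO mouse was below the WT mouse of its number. The log2 fold change of Junb was -0.47 ± 0.19 (SE) (unadjusted p = 0.0489 and adjusted p = 0.9999, edgeR, and unadjusted p = 0.00101 and adjusted p = 0.791 with the replicate block). Bdnf, the gene of the neurotrophin BDNF and a classic CREB target, had 19.6, 16.5 and 17.5 TPM in WT mice and 15.7, 16.2 and 14.1 TPM in Prmt9 KO mice, with every Prmt9 KO mouse below every WT mouse, as for 1.39% of all genes. Its log2 fold change was -0.32 ± 0.19 (SE). The CREB coactivator gene Crtc1, at 62.3, 117 and 117 TPM in WT mice and 70.0, 114 and 117 TPM in Prmt9 KO mice, was low in the mice numbered 1 and close between genotypes of the same number.

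The 11 genes downstream of the CaM kinase kinases, among them subunits of AMP-activated kinase and adaptor proteins, had 0 calls and a median log2 fold change of -0.02. The adaptor gene Ywhag had a log2 fold change of -0.02 ± 0.14 (SE), and Prkag1, a regulatory subunit gene of AMP-activated kinase, had -0.16 ± 0.14 (SE). These values lie within the spread between mice.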

How the data were processed

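The deposited files hold, per transcript and mouse, the estimated count and the TPM that the authors obtained with kallisto (version 0.46.0 per the labels), and a gene table of TPM summarized by the authors from these values. Paired-end libraries came from a stranded TruSeq kit; the strand setting and bias options used in counting are not given in the sources used here. TPM are levels per effective length, and reads that several transcripts share were divided by kallisto's model, so shares of similar transcripts are estimates. Library totals of 194098391 to 286771677 estimated counts are the depth behind every value. Of 118783 transcripts, 116710 matched GENCODE M21 (GRCm38) by identifier without version, and 2073 did not and were left out of gene sums.

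Gene counts were rounded sums of estimated counts, tested with edgeR 4.0.16 (quasi-likelihood, TMM, default filter on low counts, Benjamini-Hochberg adjustment over all genes tested) at the study's thresholds of 0.01 and 1.5-fold. Differences in transcript usage came from diffSpliceDGE of edgeR, combined over each gene's transcripts by the Simes method. Ratios and linker shares were compared by exact two-sided permutation of the 6 mice. DESeq2 1.42.0 and limma 3.58.1 were alternatives. Genes named outside the 10 are, per list, the one with the highest mean TPM and those with the smallest unadjusted p (up to 2), and the 3 most like Camk2a among genes with a mean of at least 10 TPM; transcripts are those with a mean share of at least 5%, and Camk2d-226 was named after its values were seen. A gene that the rule names is not reported here. The members and lists were chosen with earlier results of these data known. Mice of the same number deviated together from their group means (correlations of 0.807, 0.743 and 0.702 over 20303 genes, all above the limit of 0.1), so the numbers were taken to pair the mice, although unlike numbers among 2 and 3 correlated about as well (0.673 and 0.759). The code of the edgeR, DESeq2, limma and transcript usage fits was checked on simulated counts with known changes. Sequences were read from the GENCODE transcripts.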

Additional observations from a re-analysis of the deposited data

How the results depend on the processing

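Over 14 alternative gene fits, the adjusted p of each of the 10 genes stayed above 0.14, Camk2d kept a positive log2 fold change (0.24 to 0.57), and Camk4 and Camk1 stayed positive. Genes called numbered 4 with DESeq2, 1 where a batch term set the mice numbered 1 apart and 1 without both mice numbered 1, against 0. Genes called for transcript usage numbered 3 with limma's diffSplice, 12 with a gene-level F test (which was too liberal on simulated data), 1 with at least 10 counts in every mouse, 12 with the replicate block, 52 with the batch term, 230 without both mice numbered 1 and 6 to 139 when single mice were left out (6 without Prmt9 KO replicate 3, 139 without WT replicate 1), against 22. The replicate block changed no call among the 10 genes.

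Values near 0 changed sign. With limma on log2(TPM + 1) and log2(TPM + 0.1), log2 fold changes were 0.0128 and 0.0129 for Camk2a, 0.0084 and 0.0084 for Camk2b, 0.0547 and 0.0555 for Camk2n1, and 0.0051 and 0.0054 for Camkk2, and Camk2g gave -0.0216 without both mice numbered 1. Leaving out single mice gave -0.239 to 0.187 for Camk2a, -0.119 to 0.0109 for Camk2b, -0.303 to 0.242 for Camk2n1, -0.0393 to 0.1998 for Camk2n2, -0.385 to 0.0578 for Camkk1 and -0.131 to 0.0109 for Camkk2, and log2 differences of -0.160 to 0.206 for the Camk2a to Camk2b ratio and -0.00588 to 0.103 for the inhibitor ratio.

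Linker forms that stood apart numbered 1 when each share was taken of all RNA of its gene, 5 without both mice numbered 1 and 0 to 3 when single mice were left out, against 0, and 5 of 13 forms had one sign in all 3 pairs (replicate block). Share differences in percentage points that changed sign were -3.84 (estimated counts) and -0.0468 (all RNA of the gene) for Camk2d 38+49, -0.105 (all RNA of the gene) and -1.15 (without both mice numbered 1) for Camk2d 38+60+42+49, -0.2003, -0.256 and -1.19 under the same 3 settings for Camk2g 44+33+69+45+49, and 0.152 without both mice numbered 1 for Camk2g 44+33+69+45+49+114. Leaving out single mice gave -3.01 to 1.95 for Camk2a 41+33+49, -1.95 to 3.01 for Camk2a 41+49, -1.01 to 0.512 for Camk2b 75+38+72+45+49, -5.07 to 2.65 for Camk2d 38+42+49, -0.938 to 2.09 for Camk2d 38+49, -2.38 to 4.29 for Camk2d 38+60+42+49, -0.728 to 0.994 for Camk2g 44+33+69+45+49 and -0.969 to 0.0362 for Camk2g 44+33+69+45+49+114. At 0.5 TPM in every mouse, 2 forms had no transcript left and 1 was the sole form of its gene, so these gave no value. The cause of the changes was not tested. The exact test could not give a p below 0.1 for 3 mice against 3, 0.2 with 1 mouse left out, 0.333 for 2 against 2 or 0.25 for 3 pairs, so these counts of forms carry no call.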
